A study of Homo sapiens with 6 samples.

Results

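The 9 oestrogen-responsive genes described here are ATF3, CCN1 (older symbol CYR61), CCN2 (older symbol CTGF), GREB1, TFF1, XBP1, CCND1, IGF1R and TPD52L1. They were taken from a list of genes known to respond to oestrogen, and every probe set that the platform annotation assigns to 1 of them was read. This gave 21 probe sets of 54675 on the array, and 9 of the 19775 genes that could be tested. No probe set of the 9 genes named a second gene. In GRCh38.p14 the genes lie on chromosomes 1 (ATF3 and CCN1), 2 (GREB1), 6 (CCN2 and TPD52L1), 11 (CCND1), 15 (IGF1R), 21 (TFF1) and 22 (XBP1). The cells were NTERA2/D1, a long-established line from a human testicular teratocarcinoma, and RNA was taken at 72 h of transfection begun 24 h after plating. The 3 knockdown arrays held cells given siRNA against VAMP7, and the 3 control arrays held cells given a nonspecific scrambled siRNA. All cells grew in medium without phenol red, which is itself weakly oestrogenic, with 10% fetal bovine serum, and the labels name no added oestrogen and no stripping of the serum. The study asked which cellular pathways respond to a lowered expression of VAMP7, and it links this vesicle protein to the expression of oestrogen receptor targets.

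Oestrogen acts through 2 nuclear receptors, ERα (ESR1) and ERβ (ESR2), which bind DNA at oestrogen response elements or through partner factors such as AP-1, and recruit coregulators. In breast cancer cells this raises GREB1, TFF1, CCND1 and IGF1R, while ATF3, CCN1 and CCN2 are also induced by stress, serum and mechanical cues through other factors. Most of the 9 genes therefore report on more than 1 pathway. The measurements are of whole wells, so fewer expressing cells and less RNA per cell cannot be told apart.

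VAMP7 itself was at 136.8, 175.4 and 148.6 intensity units on the knockdown arrays and at 2487, 2617 and 2741 on the control arrays, so 5.87% of the control signal remained. The median intensity of an array ran from 58.85 to 67.54. Knockdown replicate 1 was the array least like the rest, with the lowest mean correlation with the others (0.9879). Of 10 measured embryonal carcinoma markers, 9 lay above the median gene in signal, among them LIN28A at 34677 in knockdown and 32836 in control on average. Of 12 markers of breast and other epithelium, fibroblasts, blood and endothelium, 10 lay below it, EPCAM and MUC1 being the others.

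None of the 9 genes passed the test. In limma with Benjamini-Hochberg adjustment over 19775 genes, 0 of the 9 had an adjusted p under 0.05, the smallest being 0.723, where 0.00506% of all genes (1 gene, VAMP7) passed. Over 54613 probe sets 0 of the 21 passed, the smallest adjusted p being 0.743, where 0.00183% of all probe sets passed. At an unadjusted p under 0.05 there were 2 of the 9 genes, IGF1R and TPD52L1, beside 6.66% of all genes, and 2 of the 21 probe sets, beside 6.62% of all probe sets. These 2 genes were already known from earlier results of these data, so the count is a description. All 9 genes had a 95% interval within a 2-fold change either way on the log2(intensity + 50) scale, on which all log2 fold changes below are given, knockdown minus control. That was so for 96.9% of all genes. This scale understates the change of dim genes.

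Promoter sequences from RefSeq (GRCh38.p14) were matched for 5 of the 9 genes, with 7 promoters in all. They are shown for both genes whose arrays did not overlap between the groups, IGF1R and TPD52L1, and for ATF3, CCN2 and XBP1, whose control by named factors is well known. Whether each window is the one through which those factors act was not examined. CCN1, GREB1, TFF1 and CCND1 were not matched. Each run is the 250 bases before an annotated start of transcription, 5′ to 3′ on the strand of the gene, and capitals mark matches to the motifs named next. The TPD52L1 run lies inside the annotated gene, which begins at base 125153773, so it precedes a later start.
IGF1R promoter (GRCh38.p14 chr15:98648289-98648538, plus strand): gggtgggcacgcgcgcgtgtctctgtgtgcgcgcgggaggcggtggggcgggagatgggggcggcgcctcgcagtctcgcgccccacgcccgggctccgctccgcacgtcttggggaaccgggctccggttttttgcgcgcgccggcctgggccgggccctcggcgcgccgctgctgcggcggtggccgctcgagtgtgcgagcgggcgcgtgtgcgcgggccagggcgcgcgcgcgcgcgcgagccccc
TPD52L1 promoter (GRCh38.p14 chr6:125153996-125154245, plus strand): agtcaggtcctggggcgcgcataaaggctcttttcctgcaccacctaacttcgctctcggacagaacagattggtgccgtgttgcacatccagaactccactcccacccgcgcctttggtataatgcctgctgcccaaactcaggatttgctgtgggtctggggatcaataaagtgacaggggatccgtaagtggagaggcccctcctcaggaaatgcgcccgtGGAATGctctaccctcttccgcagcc
ATF3 promoter (GRCh38.p14 chr1:212565157-212565406, plus strand): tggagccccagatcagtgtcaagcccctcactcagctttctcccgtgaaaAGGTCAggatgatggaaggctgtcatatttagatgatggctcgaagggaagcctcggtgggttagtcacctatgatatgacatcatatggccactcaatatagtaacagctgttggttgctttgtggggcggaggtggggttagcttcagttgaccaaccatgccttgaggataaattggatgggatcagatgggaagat
CCN2 promoter (GRCh38.p14 chr6:131951373-131951622, minus strand): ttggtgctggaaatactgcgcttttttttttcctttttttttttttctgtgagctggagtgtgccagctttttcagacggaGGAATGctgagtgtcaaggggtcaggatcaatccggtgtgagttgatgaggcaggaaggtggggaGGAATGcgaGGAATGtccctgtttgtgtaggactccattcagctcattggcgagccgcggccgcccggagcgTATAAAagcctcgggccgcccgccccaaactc
XBP1 promoter (GRCh38.p14 chr22:28800570-28800819, minus strand): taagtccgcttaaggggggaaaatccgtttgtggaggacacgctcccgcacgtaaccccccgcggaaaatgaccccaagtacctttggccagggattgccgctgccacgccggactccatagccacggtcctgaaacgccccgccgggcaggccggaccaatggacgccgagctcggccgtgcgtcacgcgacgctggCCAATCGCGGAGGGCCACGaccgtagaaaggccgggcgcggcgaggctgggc
Both strands were searched for the oestrogen response element (GGTCA and TGACC with any 3 bases between), its half-site AGGTCA (which overlaps the full element where an A precedes it), the cAMP response element TGACGTCA, the AP-1 site TGAGTCA, the TEAD site GGAATG, the CArG box, the endoplasmic reticulum stress element (CCAAT and CCACG with any 9 bases between) and the TATA box TATAAA. The full oestrogen response element was in 0 of the 7 promoters and in 0.0399% of all 35116 promoters. Its half-site was in 1 of the 7, in ATF3 with its first base 200 bases before the start, and in 12.1% of all promoters. The TEAD site was in 2 of the 7 and in 11.9% of all. CCN2 held it 3 times, 169, 104 and 95 bases before the start, and TPD52L1 once, 26 bases before the later start inside the gene. XBP1 held the endoplasmic reticulum stress element 52 bases before its start, an element found in 0.074% of all promoters. CCN2 held the letters TATAAA 32 bases before its start, and 10.7% of all promoters held them. The second promoter of ATF3, not shown, held the same letters at 230 bases. That window and the second one of XBP1 lie inside the annotated genes. No motif of the set was found in IGF1R or in the second promoter of XBP1. The cAMP response element, the AP-1 site and the CArG box were in 0 of the 7, and in 1.65%, 4.20% and 1.16% of all promoters. A match describes letters only, and a missing match says only that these letters are not in these windows.

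Both oestrogen receptors gave dim signals. All 9 ESR1 probe sets had means over the 6 arrays below the median intensity of every array, from 5.99 to 52.4 intensity units, and so did all 6 ESR2 probe sets, from 5.59 to 24.2. The brightest ESR1 probe set read 66.8, 54.7 and 52.8 in knockdown, against 57.6, 26.9 and 55.4 in control. The groups overlapped, with a log2 fold change of 0.18 (SE 0.15), or -0.16 on the ESR1 probe set of smallest p. The brightest ESR2 probe set was at 0.04 (SE 0.19), and 3 of its 6 probe sets lay below 0. The ESR2 probe set of smallest p read 5.28, 5.06 and 2.73 in knockdown, against 17.0, 18.9 and 34.2 in control, all far below the array medians. Its groups did not overlap, as in 5.15% of all probe sets in this direction. That probe set was at -0.43 (SE 0.12, limma adjusted p = 0.655), so the direction of ESR2 depended on the probe set. Without detection calls, no level could be separated from background hybridisation for either receptor.

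Among the transcription factors, ATF3, a bZIP protein induced within hours by many kinds of stress, differed by less than the spread between arrays. Its brightest probe set, 202672_s_at, read 1241, 1321 and 1223 in knockdown, against 1397, 1209 and 1363 in control. The groups overlapped, since control replicate 2 was the lowest of the 6 arrays. Its log2 fold change was -0.064 (SE 0.10, 95% interval -0.30 to 0.17, limma adjusted p = 0.925). A second probe set, 1554980_a_at, read 222.0, 350.7 and 321.3 in knockdown, against 460.6, 394.8 and 229.9 in control, which again overlapped, with a log2 fold change of -0.22 (SE 0.25). The third, 1554420_at, was dim, between 3.25 and 69.8, and at -0.03.

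XBP1, the bZIP factor of the unfolded protein response whose mRNA is spliced by the kinase and nuclease ERN1, read 1946, 2594 and 2136 in knockdown, against 2223, 2128 and 2011 in control on probe set 200670_at. Knockdown arrays were both the lowest and the highest of the 6. It had a log2 fold change of 0.059 (SE 0.13, 95% interval -0.24 to 0.36, limma adjusted p = 0.947), or -0.054 without knockdown replicate 2. Probe set 242021_at, with 62.4, 51.9 and 72.4 in knockdown and 59.7, 36.9 and 35.1 in control, was at 0.26 (SE 0.14). Probe set 242021_at averaged 53.1 over the 6 arrays, below the median intensity of every array. Which form of the transcript each probe set reads was not examined, and the spliced form was not measured separately.

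The secreted matricellular proteins CCN1 and CCN2, which are immediate early genes and targets of YAP with TEAD, both had a log2 fold change below 0 that did not pass. CCN1 read 1457, 2258 and 2041 in knockdown, against 2541, 1949 and 2175 in control on probe set 201289_at. Only knockdown replicate 1 lay below all control arrays. For CCN1 this gave a log2 fold change of -0.22 (SE 0.18, 95% interval -0.65 to 0.21, limma adjusted p = 0.856). Without knockdown replicate 1, the array least like the rest, it was -0.040, and without control replicate 1 it was -0.12. CCN1 varied within the groups more than 93.6% of the genes of at least median signal, with a within-group SD of 0.26 on the log2 scale, against a median of 0.13 for those genes.

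The second CCN1 probe set, 210764_s_at, read 1011, 750.0 and 853.3 in knockdown, against 986.8, 927.8 and 817.1 in control, with a log2 fold change of -0.066 (SE 0.14). Here knockdown replicate 1 was the highest of the 6 arrays, where on the other probe set it was the lowest. The 2 probe sets of CCN1 thus went opposite ways on that array.

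CCN2 read 240.8, 189.5 and 183.8 in knockdown, against 226.5, 244.2 and 218.4 in control, on the 1 probe set it has. Knockdown replicates 2 and 3 lay below all control arrays, while replicate 1 lay within their range. CCN2 had a log2 fold change of -0.14 (SE 0.12, 95% interval -0.42 to 0.13, limma adjusted p = 0.855), or -0.24 without knockdown replicate 1. CCN2 lay just below the median gene in signal. Its promoter is the one with 3 TEAD sites.

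TFF1, the small secreted trefoil peptide also called pS2 and a classical oestrogen-induced gene of breast cancer cells, was dim. It read 42.4, 34.9 and 35.9 in knockdown, against 39.9, 25.7 and 3.41 in control, all below the median intensity of an array. The groups overlapped, and the log2 fold change of 0.30 (SE 0.19, 95% interval -0.15 to 0.74, limma adjusted p = 0.815) rested on control replicate 3. It was 0.09 without that array. Its size also followed the offset added before the logarithm, from 1.31 with none to 0.17 with an offset of 100.

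GREB1, an oestrogen-induced coregulator of ERα, was well above the median signal even though both receptors were dim. It read 1714, 1581 and 1463 in knockdown, against 1434, 1522 and 1626 in control on probe set 205862_at. The groups overlapped. GREB1 had a log2 fold change of 0.052 (SE 0.10, 95% interval -0.19 to 0.30, limma adjusted p = 0.943), or -0.0039 without knockdown replicate 1. Of its dim probe sets, 210855_at averaged 56.2 ± 11.8 in knockdown and 39.5 ± 26.6 in control (SD, n = 3 each), a log2 fold change of 0.29 (SE 0.23). The other, 210562_at, read at most 4.73.

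CCND1, the D-type cyclin that activates CDK4 and CDK6 in G1, read 7329, 5584 and 6177 in knockdown, against 5794, 6074 and 6163 in control on probe set 208712_at. The knockdown arrays again held both the highest and the lowest value. Its log2 fold change was 0.073 (SE 0.12, 95% interval -0.21 to 0.36, limma adjusted p = 0.927), or -0.033 without knockdown replicate 1. Probe set 208711_s_at read 1321, 1170 and 1373 in knockdown, against 1336, 1357 and 1348 in control, and was at -0.065 (SE 0.10). The 2 probe sets of CCND1 therefore differed in sign, each by less than its standard error.

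IGF1R, the receptor tyrosine kinase for insulin-like growth factors, was the member with the smallest p. Its brightest probe set, 225330_at, read 3789, 4284 and 4195 in knockdown, against 3280, 3602 and 3208 in control. All 3 knockdown arrays lay above all 3 control arrays, a pattern shown by 1 of the 9 genes, where 6.68% of all genes had it, and by 1 of the 21 probe sets, where 7.28% of all probe sets had it. The difference was 0.28 on the log2 scale (SE 0.10, 95% interval 0.04 to 0.52), a 1.21-fold difference, with an adjusted p of 0.723 in limma.

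The other IGF1R probe sets moved less. Probe set 203627_at read 895.6, 776.8 and 738.1 in knockdown, against 836.6, 684.0 and 750.1 in control, a log2 fold change of 0.08 (SE 0.12). Probe set 203628_at read 682.4, 512.3 and 586.8 in knockdown, against 719.9, 502.9 and 432.3 in control, a log2 fold change of 0.12 (SE 0.20). Both overlapped between the groups, and both had intervals that hold 0 and 0.28 alike. The dim probe sets 208441_at and 243358_at were at -0.08 and -0.09. With the mean of its 5 probe sets IGF1R was at 0.06 (limma adjusted p = 0.929).

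TPD52L1, a coiled-coil protein of the tumour protein D52 family, was the member that lay lower on every knockdown array. Probe set 203786_s_at read 639.3, 718.4 and 613.9 in knockdown, against 761.5, 828.7 and 797.6 in control. The groups did not overlap, as in 6.29% of all genes in this direction and 5.15% of all probe sets. The difference was -0.26 on the log2 scale (SE 0.10, 95% interval -0.50 to -0.03), or 0.83 of the control level, with an adjusted p of 0.728 in limma. Its other probe set, 210372_s_at, read 261.7, 237.5 and 240.4 in knockdown, against 266.7, 239.3 and 228.5 in control, a log2 fold change of 0.0093 (SE 0.10). The mean of both probe sets was at -0.13 (limma adjusted p = 0.830).

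**Figure D1:**
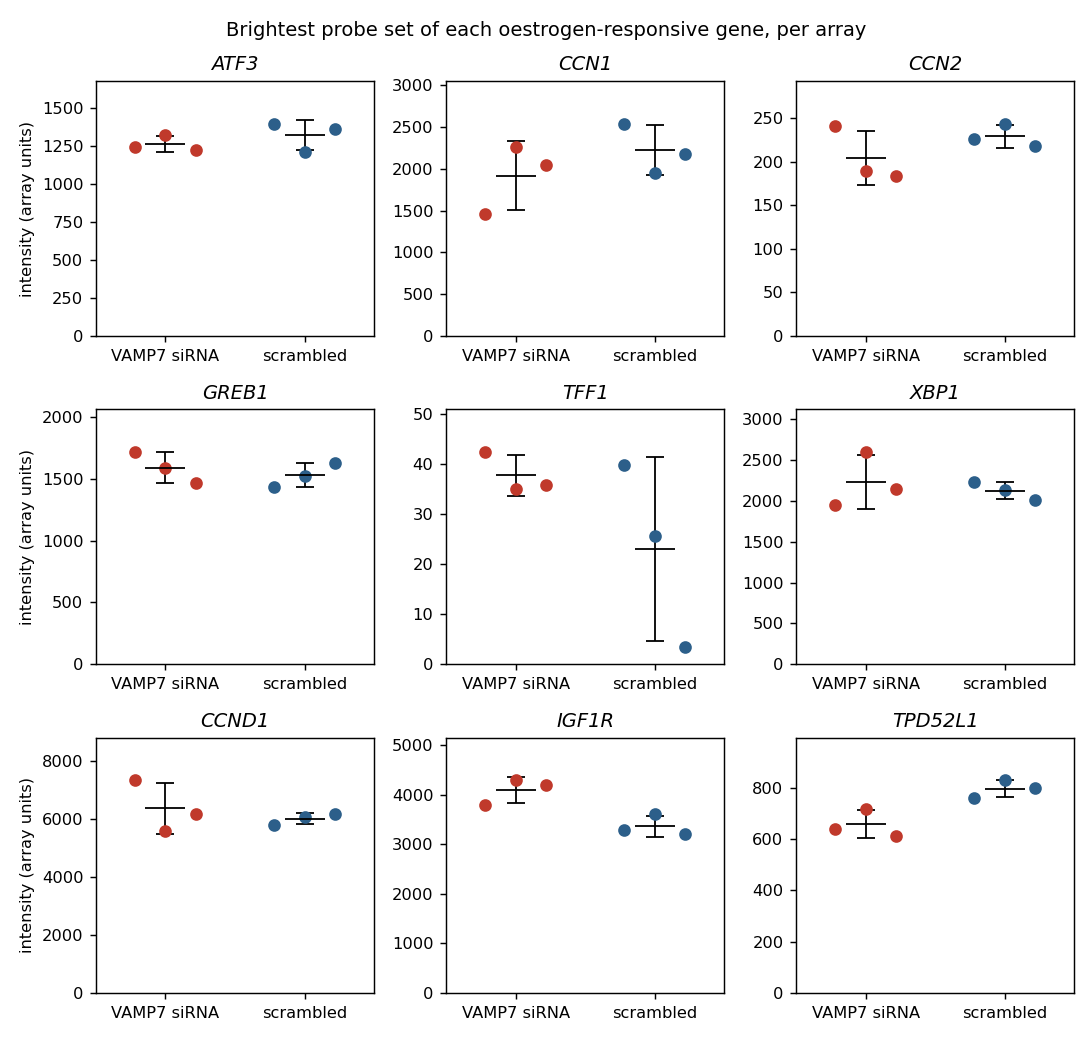
Intensity on each array (y axis, array units, from 0) of the brightest probe set of each of the 9 genes, with the VAMP7 siRNA arrays on the left in red and the scrambled arrays on the right in blue; points run from replicate 1 to 3 and black bars give mean and SD (n = 3). IGF1R is higher and TPD52L1 lower on all knockdown arrays, and the groups of the other 7 genes overlap.

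**Figure D2:**
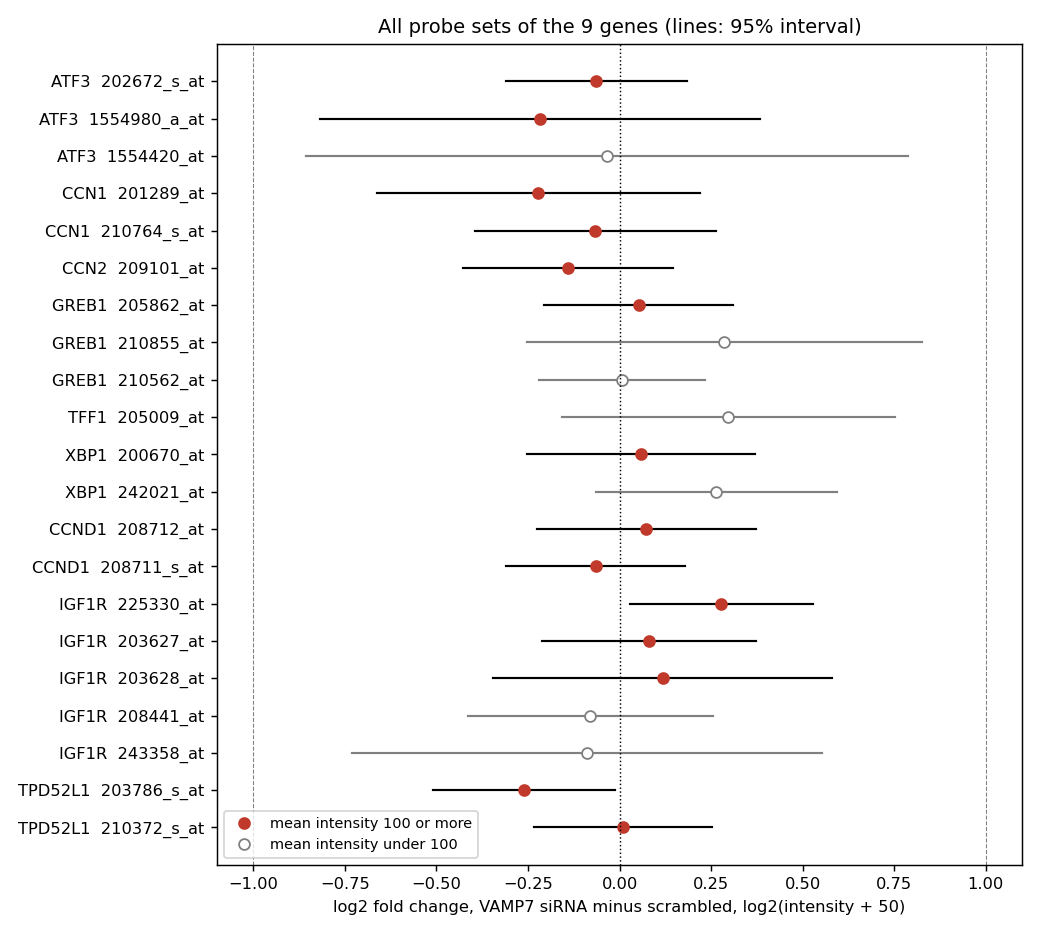
Log2 fold change, knockdown minus control (x axis, log2(intensity + 50) scale), of all 21 probe sets with 95% intervals from limma; open grey points are probe sets of mean intensity under 100, and dashed lines mark a 2-fold change. The intervals exclude 0 for 1 probe set of IGF1R and 1 of TPD52L1, and neither passed after adjustment.

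**Figure D3:**
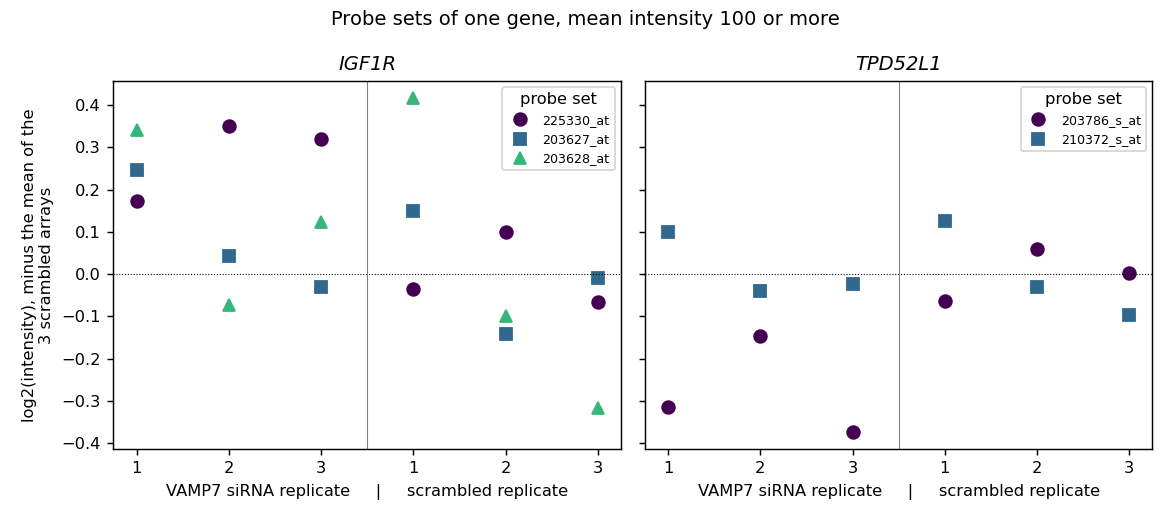
Log2 intensity of each array minus the mean of the scrambled arrays (y axis), for the 3 IGF1R and 2 TPD52L1 probe sets of mean intensity 100 or more; knockdown arrays stand left of the grey line and scrambled arrays right of it. The brightest probe set of each gene separates the groups, and the others do not.

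As a group the 9 genes were divided in direction. The log2 fold change was above 0 for 5 of them and below 0 for 4, with a median of 0.052, where 50.8% of all genes lay above 0 and their median was 0.003. The median size of the change without its sign was 0.14, against 0.11 for all genes. Among the 21 probe sets 11 lay above 0 and 10 below, with a median of 0.01. The group median turned to -0.03 without knockdown replicate 1 and to -0.05 without knockdown replicate 2. Over the 14 member probe sets with a mean intensity of 100 or more, knockdown replicate 1 was the highest array for 4 and the lowest for 3, beside 29.2% and 21.9% of all 23231 such probe sets. Control replicate 1 was the highest for 5 and the lowest for 1, beside 16.1% and 14.4%. Control replicate 3 was the highest for 0 and the lowest for 3, beside 15.5% and 18.4%. Several of these probe sets belong to the same gene.

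Among genes of at least median signal, those whose values ran most like ATF3 over the 6 arrays were WASHC3, a subunit of the WASH complex of endosomes, ZFYVE16 and the adhesion molecule MCAM. Their log2 values, centred per gene, differed from those of ATF3 by 0.015, 0.016 and 0.018 on average per array, against a median of 0.12 over the genes compared. For CCN1 they were OSTM1, NDUFB7 and RBIS, at 0.036, 0.044 and 0.046, against 0.21. For CCN2 they were POTEKP, TEX10 and TNFAIP2, at 0.029, 0.030 and 0.031, against 0.15. These are matches over 6 arrays among 9887 or 9888 genes. CCN1 was not among the 3 of CCN2. CCN2, which lay just below the median gene, was not among the genes compared with CCN1.

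Of the oestrogen receptors, related receptors, coregulators and pioneer factors, 17 of 21 listed genes were measured by a probe set of their own. None passed, 9 lay above 0 and 8 below, and the median was 0.002. At an unadjusted p under 0.05 there was 1 gene on each side of 0, PELP1 and ESRRG, beside 6.66% of all genes. PELP1, a coregulator of ERα, read 704.2, 698.9 and 731.0 in knockdown, against 563.1, 620.1 and 607.2 in control (log2 fold change 0.24, SE 0.09, limma adjusted p = 0.728). ESRRG, an orphan receptor related to the oestrogen receptors, was dim and read 112.3, 153.6 and 106.8 in knockdown, against 170.1, 160.7 and 189.7 in control (log2 fold change -0.37, SE 0.13, limma adjusted p = 0.723). In neither gene did the groups overlap. Of the 17 genes, 3 lay higher and 2 lower in knockdown without overlap, beside 6.68% and 6.29% of all genes. A second ESRRG probe set was at 0.08.

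Of 40 other genes known to respond to oestrogen in breast cancer cells, 39 were measured and 0 passed. Of these 14 lay above 0 and 25 below, with a median of -0.03, and 0 of the 39 had an unadjusted p under 0.05, beside 6.66% of all genes. The smallest p below 0 was that of SGK1, a kinase also induced by glucocorticoids, with 368.3, 437.1 and 462.0 in knockdown, against 481.9, 503.1 and 562.1 in control (log2 fold change -0.26, SE 0.12). The smallest above 0 was that of PDZK1, a scaffold protein, which was dim at 32.9, 5.56 and 36.3 in knockdown, against 7.56, 4.40 and 3.58 in control, and overlapped (log2 fold change 0.42, SE 0.18).

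The relatives and partners of the members were likewise without a call. An unadjusted p under 0.05 was reached by 2 of the YAP and TEAD targets below 0, 1 gene of the IGF system above 0 and 1 embryonal carcinoma marker below 0, and by 0 genes of the other lists described next, beside the same 6.66% of all genes. The 4 other CCN genes were all dim, with CCN4 at 0.13 and CCN6 at -0.27, which rested on 1 control array (58.2, against 1.45 and 3.74 on the others). Of 19 measured YAP and TEAD targets 9 lay above 0 and 10 below, with ARHGEF17 at 0.24 (SE 0.18), and CCDC80, a secreted matrix protein, at -0.29 (SE 0.11, limma adjusted p = 0.728). CCDC80 was dim, at 123.1, 104.4 and 88.1 in knockdown, against 138.7, 142.3 and 135.4 in control. Its other probe sets were at 0.07 and -0.12.

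Of 27 ATF, CREB and AP-1 factors 15 lay above 0 and 12 below, with a median of 0.01. FOSL1, the AP-1 subunit Fra-1, read 152.1, 123.5 and 94.3 in knockdown, against 109.3, 67.1 and 36.8 in control, and overlapped (log2 fold change 0.55, SE 0.23, limma adjusted p = 0.745). ATF2 was at -0.31 (SE 0.18) on its brightest probe set and at 0.37 and 0.10 on its others. Of 17 measured genes of XBP1 activation and its targets 12 lay above 0 and 5 below, with a median of 0.05. SDF2L1, a chaperone cofactor of the endoplasmic reticulum, read 845.9, 668.9 and 664.8 in knockdown, against 633.5, 581.3 and 580.3 in control, without overlap (log2 fold change 0.25, SE 0.12, limma adjusted p = 0.762). SEC61A1, the channel of the translocon, was at -0.13 (SE 0.12).

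Of 21 measured D cyclins, their kinases, inhibitors and RB and E2F factors 9 lay above 0 and 12 below, with CDKN2B at 0.24 (SE 0.11) and CDKN2A at -0.22 (SE 0.12), both dim. CDKN2A was above 0 on its other probe sets, at 0.35 and 0.18, and CDKN2B was at -0.17 on its other one. Of 20 measured genes of the IGF system 11 lay above 0 and 9 below, with a median of 0.06. IGF2R, the receptor that clears IGF2 and carries lysosomal enzymes, read 2913, 2872 and 3141 in knockdown, against 2535, 2510 and 2515 in control (log2 fold change 0.23, SE 0.09, limma adjusted p = 0.728). Its second bright probe set was at 0.24, and a dim one at -0.27. IGFALS, the acid-labile subunit that carries IGFs in plasma, was dim and at -0.41 (SE 0.19).

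In the families of TPD52L1 and TFF1, TPD52L2 read 2232, 2373 and 2272 in knockdown, against 2400, 2427 and 2891 in control (log2 fold change -0.16, SE 0.11, limma adjusted p = 0.829). The groups did not overlap, as in 2 of the 5 genes of these families, both lower in knockdown, beside 6.29% of all genes. TPD52L3, a family member of the testis, was dim and at 0.41 (SE 0.19), TPD52 was at -0.01, and the trefoil factors TFF2 and TFF3 were dim like TFF1. Among the embryonal carcinoma markers SOX2 was at 0.22 (SE 0.13) and NANOG at -0.28 (SE 0.12). Among those of other cells PECAM1 was at 0.34 (SE 0.17) and LUM at -0.32 (SE 0.14), both dim. The other PECAM1 probe sets were at -0.16, 0.17, -0.33 and -0.08, and the other one of LUM at -0.11. There were 0 calls in either list.

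**Figure D4:**
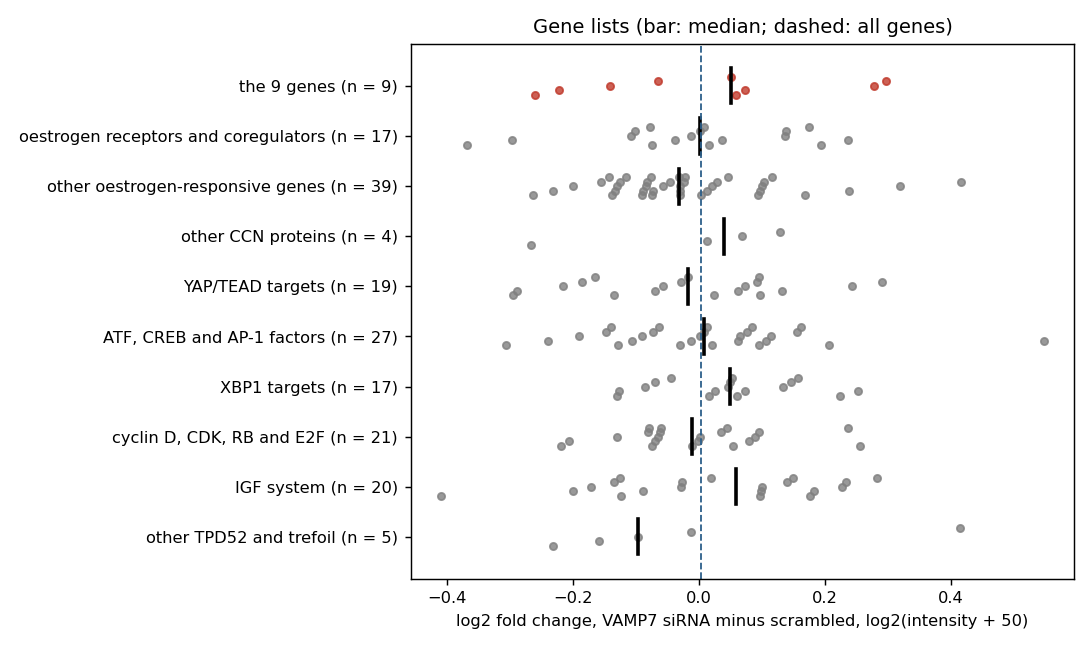
Log2 fold change, knockdown minus control (x axis), of each measured gene of the 9 members (red) and of 9 lists around them (grey); black bars are list medians and the dashed line is the median of all genes. Each list lies on both sides of 0, and no gene shown passed the adjusted threshold.

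**Figure D5:**
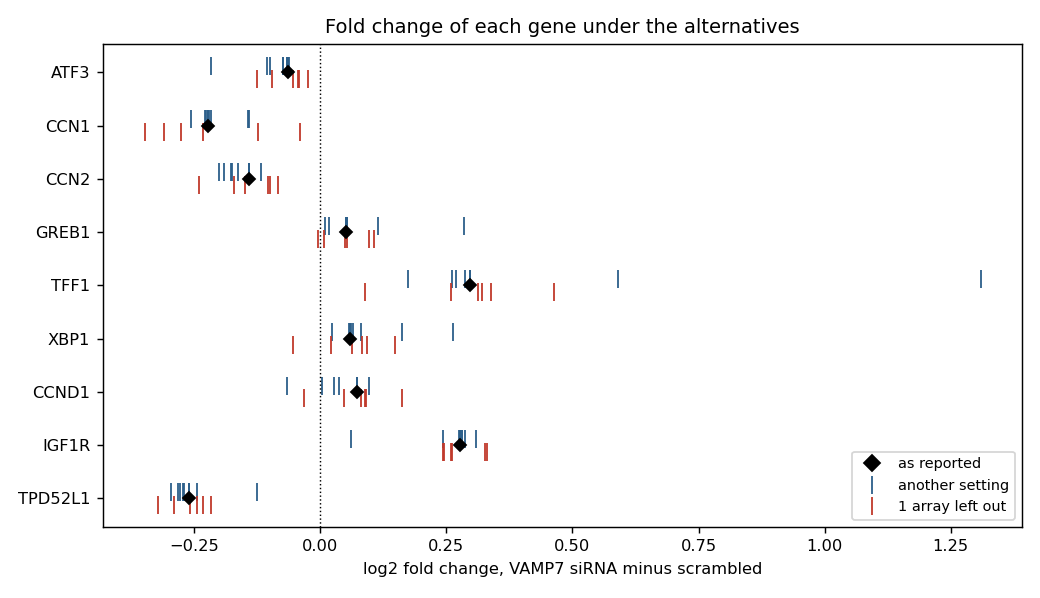
Log2 fold change of each member (x axis) as reported (black diamond), under each other setting (blue ticks) and with 1 array left out (red ticks). ATF3, CCN1, CCN2 and TPD52L1 stay below 0 and TFF1 and IGF1R above it, while GREB1, XBP1 and CCND1 fall on both sides.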

How the data were processed

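Probe-set intensities of 6 arrays, 3 knockdown and 3 control, were read from the deposited value table, with probe sets named from the platform annotation and symbols updated by gene identifier to GRCh38.p14. The deposited intensities were linear, and each array had a mean of about 500.07 after 2% of its values at each end were left out, so they had been scaled by the authors. RMA is named, with no version, per the submitters' processing notes, and no further step is recorded there. The linear scale and unequal medians differ from the usual output of RMA. An offset of 50 was added before log2. For each gene the probe set of highest mean among those naming 1 gene was used (41091 probe sets, 19775 genes), and all 54613 probe sets that are not array controls were fitted beside them. The groups were fitted with lmFit and eBayes of limma 3.58.1 (R 4.3.3), p-values were adjusted by Benjamini-Hochberg over all features, and a call needed one below 0.05. Exact permutation was not used, since 3 against 3 arrays allow no two-sided p below 0.1. Sample titles number biological replicates 1 to 3, and these numbers were used, although the description field gives number 1 for every knockdown sample. Whether replicates were separate cultures is not said, so p-values reflect only how these samples vary, which may be technical. Precision is limited by the number of arrays, and detection calls were not used. The code was tested on simulated arrays. Genes below the median gene, 8.09 on the log2 scale, are called dim.

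The members, lists and tests were chosen with earlier results of these data known. From each list the member of smallest p on each side of 0 was named, and for ATF3, CCN1 and CCN2 the 3 genes of smallest mean difference. The alternatives were other offsets (0, 16 and 100), a dim-gene filter, other choices of probe set, array weights, quantile normalization, median centring, a trend or robust eBayes, a block for the replicate number and the omission of each array.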

Additional observations from a re-analysis of the deposited data

How the results depend on the processing

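Of 971 recomputed values for 57 results, 917 kept their direction and their side of the threshold. Counts of calls are included there when within 1.5 times the reported count, and the median of the 9 members when within 0.036, the pooled SD between replicates of their median centred log2 value. VAMP7 stayed below 0 and past the threshold in all 18 alternatives (-4.10 to -3.42), and no member passed in any (smallest adjusted p 0.382, for IGF1R with the probe set of smallest p). The count of genes called was 4 at an offset of 0, and 2 at an offset of 16 and when probe sets of a gene were averaged. The count of probe sets called was 4 at an offset of 0. The median of the 9 members was 0.0039 with the mean of probe sets, -0.065 with the probe set of smallest p, 0.010 with array weights, and -0.054 to 0.083 with 1 array left out. With 1 array left out GREB1 ranged from -0.0039 to 0.11, XBP1 from -0.054 to 0.15 and CCND1 from -0.033 to 0.16, and CCND1 was at -0.065 with its probe set of smallest p. The cause was not tested.

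The replicate number as a block left 1 gene and 1 probe set called, with IGF1R and TPD52L1 at an adjusted p of 0.773 each, and changed no call. The deviations of same-numbered arrays correlated at -0.005, 0.013 and -0.014, so no pairing was seen in them. These values cannot tell whether same-numbered arrays shared a culture. Median centring moved the median of all genes to -0.03.

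With 1 array left out, other values that turned ranged for ESR2 from -0.092 to 0.20, CCN4 from -0.032 to 0.29, CCN6 from -0.46 to 0.080, ATF3 probe set 1554420_at from -0.38 to 0.18, CCN1 210764_s_at from -0.17 to 0.031, GREB1 210562_at from -0.028 to 0.031, IGF1R 203628_at from -0.028 to 0.31, IGF1R 243358_at from -0.26 to 0.23 and TPD52L1 210372_s_at from -0.031 to 0.062. With the mean of probe sets ESR2 was at -0.10, ATF2 at 0.054, CDKN2A at 0.10, PECAM1 at -0.012, CELSR2 at -0.014 and SHC1 at 0.049. With the probe set of smallest p ESR1 was at -0.16, ESR2 at -0.43, ATF2 at 0.37, CDKN2A at 0.35, PECAM1 at -0.33, SHC1 at 0.30 and SEL1L at -0.25. ATF3 1554420_at was at 0.39 and 0.0063 at offsets of 0 and 16, and IGF1R 243358_at at 0.20 at an offset of 0. GREB1 210562_at was at -0.035 with median centring and -0.012 with array weights, and TPD52L1 210372_s_at at -0.033 with median centring, -0.039 with quantile normalization and -0.011 with array weights.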

Other observations

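In the IGF system 2 of 20 genes lay higher on all knockdown arrays and 1 lower, and among XBP1 genes 3 of 17 lay higher and 0 lower, where 6.68% of all genes lay higher and 6.29% lower without overlap. None passed the test, and the genes named here were chosen after their values were seen. IRS2, an adaptor of the insulin and IGF1 receptors, read 8191, 7239 and 8008 in knockdown, against 6383, 7055 and 6545 in control. Its log2 fold change was 0.23 (SE 0.098, limma adjusted p = 0.745), with 0.18 on its second probe set, which did not overlap either. IGF2R was at 0.23 and 0.24 on its bright probe sets, both without overlap. SHC1, another adaptor of these receptors, was lower in knockdown on its brightest probe set (-0.20, SE 0.11) and higher on the second (0.30, SE 0.12), each without overlap, so its direction depended on the probe set. Among XBP1 targets CRELD2, a chaperone of the endoplasmic reticulum, read 1889, 1683 and 1553 in knockdown, against 1492, 1540 and 1331 in control (0.22, SE 0.11), and SEL1L, a partner of the degradation ligase there, was at 0.15 (SE 0.09) on its brightest probe set and between -0.25 and 0.28 on its dimmer ones.

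Among the other oestrogen-responsive genes 5 of 39 separated the groups, 2 higher in knockdown and 3 lower, which is near the 6.68% and 6.29% of all genes. CELSR2, a cadherin of planar polarity, read 2259, 2134 and 1925 in knockdown, against 1631, 1879 and 1824 in control (0.24, SE 0.11), but its second probe set was at -0.27 (SE 0.19). ELOVL2, a fatty acid elongase, was at 0.12 (SE 0.09). CTSD, a lysosomal protease and a classical oestrogen-induced gene, read 477.0, 480.8 and 455.3 in knockdown, against 554.4, 495.7 and 515.9 in control (-0.13, SE 0.09, limma adjusted p = 0.830). OLFM1 was at -0.20 (SE 0.10) on its brightest probe set and at 0.0037 on its second.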
